A study of Mus musculus with 16 samples.

Results

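The genes described are 41 listed genes of mitosis, from the kinases and cyclins that start it to the proteins of the spindle, kinetochore, checkpoint and cleavage furrow. They were taken by name, and each was represented by its brightest probe set, taken as a mean of the 16 arrays. Of the 41 genes 40 had a probe set with a single gene name, and all 40 were bright enough to be tested, among 18193 genes with a probe set and 13644 tested. Ccnb1, the cyclin partner of Cdk1, was not analysed here.

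The arrays, Affymetrix Mouse430_2, measured total RNA from adrenal glands of mouse embryos on a C57BL/6 background at E15.5 and E16.5, with 4 control and 4 knockout arrays at each stage. Knockout embryos carried Sf1-Cre and 2 floxed Dicer alleles (Sf1-Cre/Dicer lox/lox), and lost Dicer, which cleaves precursors into mature microRNAs, where the Sf1 regulatory sequence had driven Cre, which in this gland means the steroid-producing cortex. Controls were littermates without Cre, are labelled WT, and came from matings in which floxed Dicer alleles were present. Each array was a pool of the glands of 1 genotype from 1 litter, 4 litters per stage, and other cells of the gland, such as chromaffin cells, vessels, capsule and macrophages, were in the same RNA. The plug morning was counted as E0.5. Every value is a log2 signal, a scale on which a difference of 1 is a 2-fold change, and differences are given with their standard error (SE). A gene passed when its limma p-value, adjusted over the 13644 genes by the Benjamini-Hochberg method, was under 0.05.

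A cell enters mitosis when cyclin-bound Cdk1 is released from its brakes and, with Plk1 and the Aurora kinases, drives chromosome condensation and spindle building. Kinetochores then tie chromosomes to spindle microtubules, and the checkpoint proteins hold back the anaphase promoting complex until every chromosome is attached. Most of these genes are transcribed mainly in G2 and M phase, repressed outside it by complexes that read the cell cycle homology region of their promoters and activated with the help of CCAAT boxes, so that their summed RNA level in a tissue follows the share of dividing cells. In a bulk sample, fewer dividing cells and less RNA per dividing cell cannot be told apart.

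Promoter windows of RefSeq (build GRCm38.p6), from 250 bases before to 50 bases after a start, were held for 35 of the 41 genes. The letters TTTGAA or TTCGAA, the core of the cell cycle homology region, were searched on both strands, as was CCAAT. The first motif was in the windows of 29 of 35 genes (82.9%), against 21.7% of the 27025 genes in the table, and within 50 bases of the start in 27 (77.1%), against 6.12%. CCAAT was in 28 of 35 (80%), against 41.1%, and 2 or more copies were in 20 (57.1%), against 13.3%. Both motifs were present in 26 (74.3%), against 8.61% of all genes. These are matches of letters, with no test and no evidence of binding in these glands. The 6 sequences below are shown because their genes hold both motifs upstream of every annotated start and had the smallest p-values in the array comparisons among such genes. Each is up to 200 bases on the gene's strand, 5′ to 3′, and capitals mark the motifs on either strand (TTCAAA and ATTGG are the reverse complements of TTTGAA and CCAAT).

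Top2a, at chr11:99024200-99024389 on the minus strand, had 4 matches of the first motif and 5 of CCAAT.
Top2a: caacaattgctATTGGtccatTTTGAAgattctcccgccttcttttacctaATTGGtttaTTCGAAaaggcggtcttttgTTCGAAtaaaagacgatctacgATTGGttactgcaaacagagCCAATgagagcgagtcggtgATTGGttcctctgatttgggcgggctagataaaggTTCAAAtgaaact
Mki67, at chr7:135716451-135716579 on the minus strand, had 2 and 3.
Mki67: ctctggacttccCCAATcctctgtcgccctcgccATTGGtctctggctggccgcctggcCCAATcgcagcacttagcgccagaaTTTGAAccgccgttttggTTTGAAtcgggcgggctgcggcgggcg
Kif11, at chr19:37376182-37376381 on the plus strand, had 1 of each.
Kif11: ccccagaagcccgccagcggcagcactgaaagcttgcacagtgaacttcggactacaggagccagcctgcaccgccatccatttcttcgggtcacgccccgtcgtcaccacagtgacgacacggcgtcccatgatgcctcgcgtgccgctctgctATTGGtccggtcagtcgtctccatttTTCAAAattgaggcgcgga
Bub1b, at chr2:118598011-118598201 on the plus strand, had 1 of each.
Bub1b: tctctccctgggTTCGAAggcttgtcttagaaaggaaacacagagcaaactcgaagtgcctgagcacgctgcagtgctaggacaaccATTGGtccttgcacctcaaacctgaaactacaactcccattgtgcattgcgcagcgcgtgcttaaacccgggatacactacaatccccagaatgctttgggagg
Ube2c, at chr2:164769729-164769928 on the plus strand, had 1 and 5, of which a pair overlaps on opposite strands in CCAATTGG.
Ube2c: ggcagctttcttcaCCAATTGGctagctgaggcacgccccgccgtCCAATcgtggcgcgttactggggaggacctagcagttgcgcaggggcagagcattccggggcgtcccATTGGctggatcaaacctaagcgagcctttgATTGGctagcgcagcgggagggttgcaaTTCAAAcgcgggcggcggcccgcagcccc
Cdk1, at chr10:69352913-69353112 on the minus strand, had 2 of each.
Cdk1: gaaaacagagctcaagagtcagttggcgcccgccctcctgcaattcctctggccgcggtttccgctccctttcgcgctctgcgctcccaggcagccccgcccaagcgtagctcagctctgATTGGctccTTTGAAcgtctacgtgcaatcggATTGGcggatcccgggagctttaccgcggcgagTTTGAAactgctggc

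**Figure D1:**
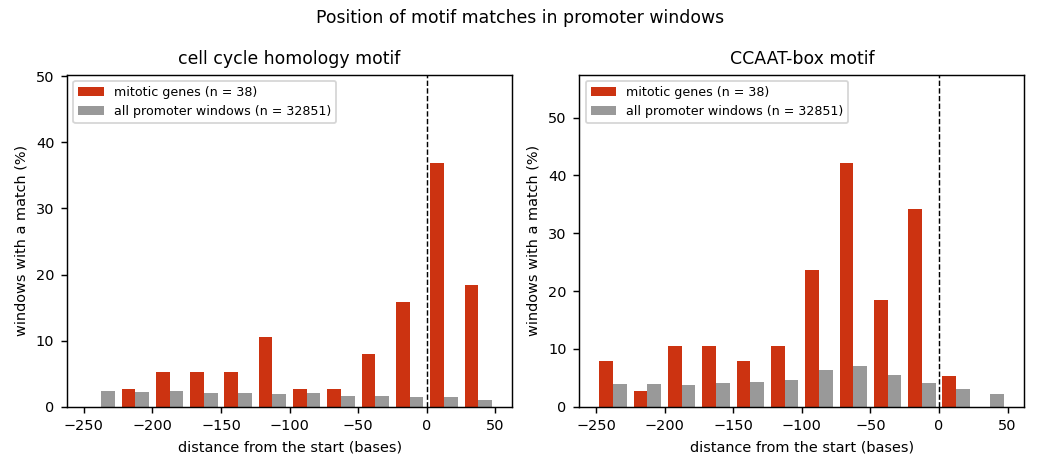
Share of promoter windows (y axis, percent) with a motif match starting in each 25-base bin (x axis, distance from the annotated start in bases), for 38 windows of the mitotic genes and 32851 windows of all genes. Matches of the cell cycle homology motif in the mitotic genes were most frequent just after the start (36.8% of windows), while CCAAT matches lay mostly upstream of it.

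The targeted gene and the quality of the arrays bear on every comparison. Dicer1 signal was 8.50 to 8.64 in the controls and 8.002 to 8.357 in the knockouts at E15.5 (difference −0.35, SE 0.11, limma adjusted p = 0.0638), and 8.45 to 8.83 against 8.09 to 8.42 at E16.5 (−0.36, SE 0.11, adjusted p = 0.0414). The sources do not say whether its probe set lies in the deleted part of the gene. Cortex genes were bright in the tissue (mean log2 signal 13.5 for Star and 13.2 for Cyp11a1), as were chromaffin genes such as Chgb (13.2). Control replicate 2 at E16.5 stood apart: its probe sets at the 3′ end of Gapdh and Actb exceeded those at the 5′ end by 3.25 and 3.05, against −0.05 to 1.50 and 0.37 to 1.74 on the other 15 arrays, a sign of shortened RNA. Values that moved by over 1.5 times without this array are given both ways. The knockout arrays were slightly brighter as a whole, with a median difference over all genes of 0.07 at E15.5 and 0.08 at E16.5.

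The mitotic genes lay lowest in the controls at E16.5 and highest in the knockouts at E15.5. Averaged over the 40 genes, log2 signal was 9.79, 9.74, 9.74 and 9.65 in control replicates 1 to 4 at E15.5 and 9.93, 9.89, 9.94 and 9.89 in the knockouts. At E16.5 it was 9.30, 9.03, 9.40 and 9.41 in the controls and 9.60, 9.64, 9.67 and 9.71 in the knockouts. Knockouts lay above controls of their stage on every array, the E16.5 controls lay below all other arrays, and only the E15.5 controls and the E16.5 knockouts overlapped. The lowest value belonged to control replicate 2 at E16.5, without which the control mean at that stage was 9.37 ± 0.060 (SD, n = 3) in place of 9.29 ± 0.18 (n = 4). The group mean was lowest in the E16.5 controls for 39 of the 40 genes, the exception being the checkpoint kinase gene Ttk, and highest in the E15.5 knockouts for 34. For 29 genes the knockout mean at E16.5 lay between the control means of the 2 stages. The order from E16.5 control through E16.5 knockout and E15.5 control to E15.5 knockout held in full for 24 genes, and for 24 without control replicate 2.

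**Figure D2:**
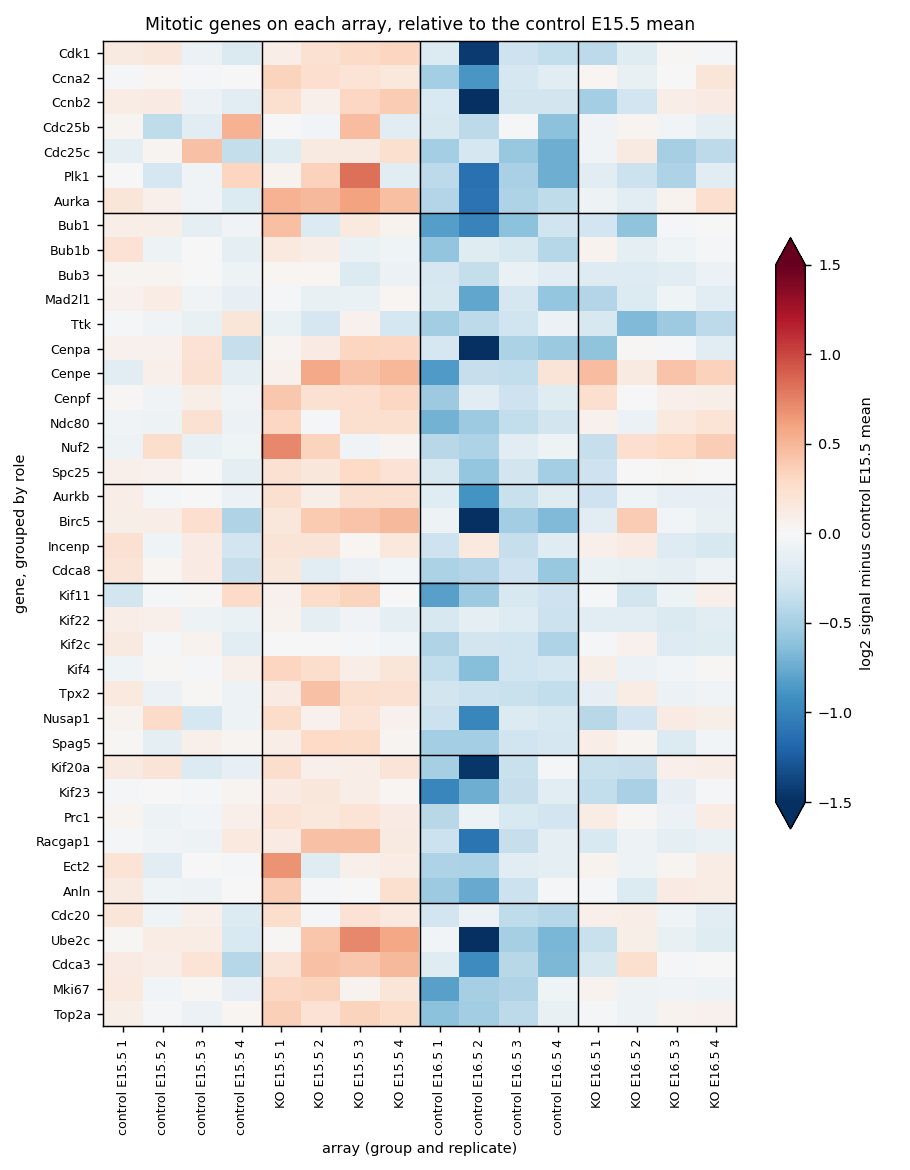
Log2 signal of the 40 mitotic genes (rows, grouped by role and separated by lines) on the 16 arrays (columns), minus the mean of the 4 control arrays at E15.5; red is higher, blue is lower, and colours saturate at the ends of the scale. The 4 E16.5 control columns are mostly blue, the E15.5 knockout columns mostly red, and control replicate 2 at E16.5 holds the darkest cells.

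At E16.5 the comparison of knockout with control asked how the loss of Dicer in the cortex bore on these genes, and 11 of 40 rose in the knockout and 0 fell, where 6.99% of all genes tested rose and 3.55% fell. The 11 were the kinase gene Aurka (0.61, SE 0.15), the kinetochore genes Ndc80 (0.55, SE 0.12), Cenpe (0.69, SE 0.18) and Cenpf (0.40, SE 0.10), Ccna2 (0.47, SE 0.13), the spindle genes Kif4 (0.38, SE 0.09) and Spag5 (0.37, SE 0.10), the midzone gene Prc1 (0.29, SE 0.09), and Cdca3 (0.55, SE 0.17), Top2a (0.42, SE 0.10) and Mki67 (0.42, SE 0.13). At an unadjusted p under 0.05, 26 were higher and 0 lower, against 16.8% and 7.25% of all genes. The difference was positive for 39 of 40, against 8769 of the 13644 genes tested. The median over the 40 genes was 0.38, against 0.08 over all genes. Every knockout array was above every control for 12 genes, 7 of them among the 11, and below for 0, against 10.4% and 4.76% of all genes.

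Control replicate 2 did not set that count, although it changed which genes were in it. Without it 11 genes again rose and 0 fell, against 8.6% and 3.9% of all genes, and 8 were shared with the fit on all arrays: Bub1b, Kif2c and Cdc20 passed in place of Spag5, Cdca3 and Mki67. The median was then 0.30, and every knockout array was higher for 15 genes and lower for 0 (17.5% and 7.2% of all genes). At an unadjusted p under 0.05 no gene was lower in that fit, against 8.19% of all genes. For Bub1b, Kif2c and Cdc20, which passed only in that fit, replicate 2 was the highest of the E16.5 controls. The probe sets of Kif2c and Cdc20 hold probes that match other transcripts, and that of Bub1b is of the kind shared by several genes' transcripts. The count depended on how the arrays' overall brightness was treated. When each array was centred on its upper quartile 3 genes rose (Aurka, Cenpe and Ndc80), 4 when it was centred on dim probe sets and 5 after quantile normalization, against 3.28%, 4.38% and 4.44% of all genes, whose split moved from 954 higher and 485 lower to 447 and 609, 598 and 647, and 606 and 570. The median of the 40 genes stayed positive in all 3 (0.29, 0.31 and 0.29), and the sign of the median was the same in every setting tried. Leaving out knockout replicate 4 or 3 at E16.5 gave 6 and 7 genes, and the count was 8 to 12 without any other single array. Of all genes 4.87% and 4.46% rose in those 2 fits, and 5.12% to 8.6% in the others.

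No mitotic gene passed at E15.5, where 3.69% of all genes rose in the knockout and 2.18% fell by the same limma test. At an unadjusted p under 0.05, 8 were higher and 0 lower, against 12.8% and 6.24% of all genes. These 8 were Aurka (0.51, SE 0.15, adjusted p = 0.0503), Cenpe (0.39, SE 0.18), Cdca3 (0.38, SE 0.17), Cenpf (0.30, SE 0.10), Top2a (0.30, SE 0.10), Tpx2 (0.26, SE 0.09), Spc25 (0.23, SE 0.10) and Kif4 (0.22, SE 0.09). The difference was positive for 34 of the 40 genes, against 8764 of the 13644 genes tested. The median was 0.19, against 0.07 over all genes, and every knockout array was higher for 7 and lower for 0 (9.8% and 4.7% of all genes). Aurka passed without control replicate 2 or 4 at E16.5, which enter through the shared spread, and Top2a passed without replicate 4, so that the counts were 1 and 2. Of all genes 4.92% rose and 2.84% fell without replicate 2, and 4.12% and 2.44% without replicate 4. At an unadjusted p under 0.05, 14 of the 40 were higher and 0 lower without replicate 2, against 14.8% and 6.98% of all genes.

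**Figure D3:**
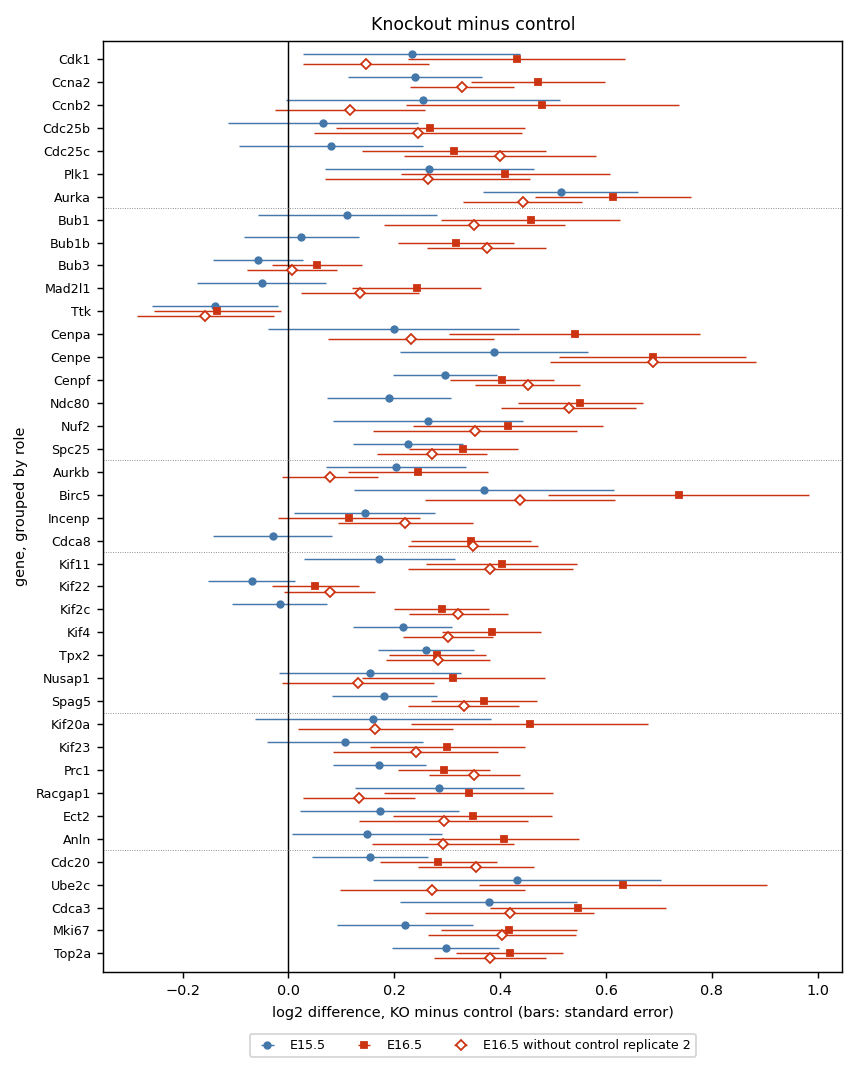
Knockout minus control (x axis, log2 difference, bars 1 standard error) for each of the 40 mitotic genes (y axis, grouped by role), at E15.5 (circles), at E16.5 (squares) and at E16.5 without control replicate 2 (open diamonds). Of the 40 points, 34 lie right of 0 at E15.5 and 39 at E16.5, Ttk is left of 0 at both, and leaving out the replicate moves the points of Cdk1, Ccnb2, Cenpa, Birc5, Kif20a and Ube2c furthest.

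From E15.5 to E16.5 the controls were lower at the later stage for 40 of 40 genes, against 6598 of the 13644 genes tested, although no single mitotic gene passed. Only 0.0513% of all genes tested passed as lower and 0.044% as higher in that comparison, so few genes of any kind reached the threshold. At an unadjusted p under 0.05, 35 of the 40 were lower and 0 higher, against 3.01% and 4.84% of all genes; the 5 others were Cdc25b, Cenpe, Ect2, Incenp and Nuf2. The median difference was −0.42, against 0.01 over all genes. All E16.5 arrays were below all E15.5 arrays for 21 genes and above for 0, against 1.68% and 2.31% of all genes. Without control replicate 2 at E16.5, 32 genes were lower at an unadjusted p under 0.05 and 0 higher (3% and 5.06% of all genes), and the median was −0.35. The groups were then apart for 23 lower and 0 higher genes (3.14% and 4.87%), none passed, and 0.0147% of all genes passed as higher and 0 as lower. One gene, Cdca8, passed without control replicate 4 at E15.5, where 0.066% of all genes passed as lower. When arrays were weighted by their fit to the other arrays 32 passed as lower, against 2.74% of all genes, but that fit rests on control replicate 3 at E16.5, whose weight was 10.4 against 0.193 for replicate 2.

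In the knockouts the same comparison gave differences below 0 for 40 of 40 genes, against 6588 of the 13644 genes tested. The median of the 40 was −0.25, and none of them passed, while 0.0293% of all genes passed as lower and 0.872% as higher. At an unadjusted p under 0.05, 11 genes were lower and 0 higher, against 2.42% and 7.09% of all genes: Aurka, Aurkb, Cdca3, Kif23, Kif4, Plk1, Racgap1, Spc25, Top2a, Tpx2 and Ttk. The groups were apart for 13 lower and 0 higher genes, against 2.24% and 5.53% of all genes. In the fit without control replicate 2 at E16.5, which changes only the shared spread here, 3 genes fell: Aurka (−0.50, SE 0.10), Racgap1 (−0.42, SE 0.10) and Aurkb (−0.36, SE 0.08). Of all genes 0.0733% fell and 1.21% rose in that fit, and at an unadjusted p under 0.05, 17 of the 40 were lower, against 4.1% of all genes.

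The difference between the 2 knockout effects, which is also the difference between the 2 day changes, was tested directly and passed for 0 of the 40 genes and 0 of the 13644. It was positive for 39 of the 40 genes, against 7123 of the 13644. The median of the 40 was 0.19, and the 95% intervals reached from 0.25 to 0.82 on either side of the estimates. At an unadjusted p under 0.05, 3 genes were positive, Kif2c (0.31, SE 0.13), Cdca8 (0.37, SE 0.16) and Ndc80 (0.36, SE 0.17), and 0 negative, against 1.28% and 0.608% of all genes. Over 25 alternative settings the estimates were 0.16 to 0.36 for Kif2c, 0.17 to 0.49 for Cdca8 and 0.28 to 0.43 for Ndc80. Without control replicate 2 the median was 0.09, with 31 genes positive. The data therefore do not show that the knockout effect differed between the stages, and effects smaller than those intervals were not detectable with 4 arrays per group. The intervals are not adjusted for the number of genes tested, so a gene needed a larger effect still to pass.

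**Figure D4:**
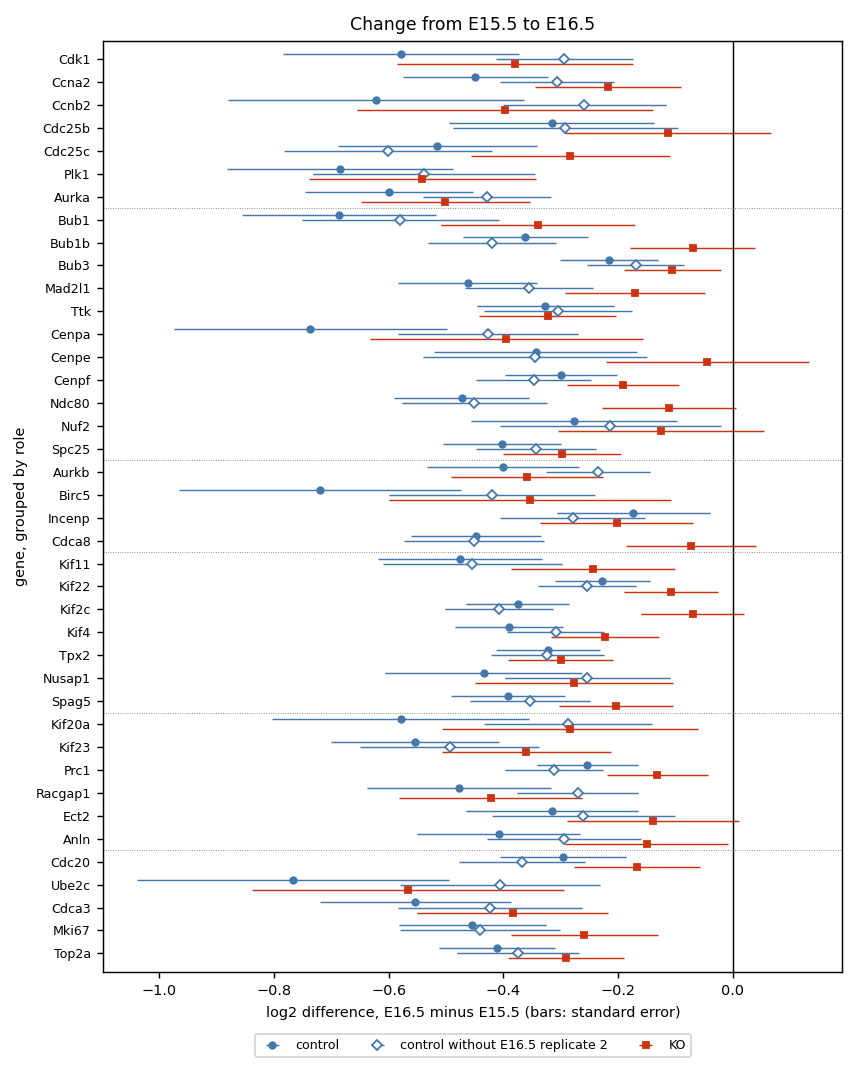
E16.5 minus E15.5 (x axis, log2 difference, bars 1 standard error) for each mitotic gene (y axis, grouped by role) in controls (filled circles), in controls without replicate 2 at E16.5 (open diamonds) and in knockouts (squares). All points lie left of 0, and for 39 of 40 genes the control point on all arrays lies further left than the knockout point.

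The genes that start mitosis were measured for 7 of 8. At E16.5, 2 of the 7 rose (Aurka and Ccna2), against 6.99% of all genes. The median difference of the 7 was 0.43, or 0.26 without control replicate 2 at E16.5. Aurka, the centrosomal kinase that matures spindle poles, had log2 signals of 8.77, 8.67, 8.54 and 8.38 in control replicates 1 to 4 at E15.5 and 9.11, 9.08, 9.20 and 9.04 in the knockouts. At E16.5 it had 8.16, 7.48, 8.13 and 8.21 in the controls and 8.52, 8.43, 8.64 and 8.84 in the knockouts. Every knockout array was above every control array of its stage, and control replicate 2 at E16.5 was far below the rest. The knockout was 1.53-fold higher at E16.5 (limma adjusted p = 0.0134), and 0.44 (SE 0.11, adjusted p = 0.0173) without replicate 2; over 25 alternative settings the difference was 0.36 to 0.68 and the adjusted p 3.77e-05 to 0.0575, passing in 24. The day difference was −0.60 (SE 0.15) in controls and −0.50 (SE 0.15) in knockouts.

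Cdk1, the kinase at the centre of mitotic entry, showed how much 1 array can carry. Its log2 signals were 10.95, 10.98, 10.73 and 10.60 in the E15.5 controls and 10.92, 11.04, 11.10 and 11.14 in the knockouts. At E16.5 they were 10.61, 9.39, 10.51 and 10.45 in the controls and 10.42, 10.63, 10.83 and 10.80 in the knockouts. Apart from control replicate 2 at E16.5, the groups of that stage overlapped. The difference at E16.5 was 0.43 (SE 0.21, adjusted p = 0.214) with that array and 0.15 (SE 0.12) without it, and for Ccnb2, a B-type cyclin that partners it, the values were 0.48 (SE 0.26) and 0.12 (SE 0.14). Ccna2, the cyclin of S and G2 phase, kept its call without that array, at 0.47 (adjusted p = 0.0252) and 0.33 (adjusted p = 0.0407; range 0.00145 to 0.131 over all alternatives).

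Plk1, the polo kinase of centrosomes and kinetochores, had its widest spread in the E15.5 knockouts, with log2 signals of 8.84, 9.14, 9.63 and 8.64, against 8.79, 8.53, 8.75 and 9.12 in the controls. At E16.5 they were 8.40, 7.67, 8.31 and 8.06 in the controls and 8.63, 8.47, 8.34 and 8.64 in the knockouts. The groups overlapped at both stages. Its difference was 0.27 (SE 0.20) at E15.5 and 0.41 (SE 0.20, adjusted p = 0.219) at E16.5, or 0.26 (SE 0.19) without control replicate 2, with day differences of −0.69 in controls and −0.54 in knockouts. The phosphatase genes Cdc25b and Cdc25c, whose products release Cdk1 from its inhibitory phosphates, differed by 0.27 and 0.31 at E16.5 and did not pass.

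Of the 11 checkpoint and kinetochore genes 3 rose at E16.5, against 6.99% of all genes, and the median difference was 0.40. Ndc80, the microtubule-binding subunit of the kinetochore's NDC80 complex, had the smallest p of the 40 genes in that comparison. Its log2 signals at E15.5 were 8.15, 8.12, 8.42 and 8.11 in the controls and 8.51, 8.16, 8.44 and 8.43 in the knockouts. At E16.5 the controls had 7.49, 7.66, 7.83 and 7.93 and the knockouts 8.26, 8.11, 8.34 and 8.40. The E16.5 groups were well apart, and the E16.5 knockouts lay among the E15.5 controls. The difference of 0.55 (1.47-fold, adjusted p = 0.00612) passed in all 25 alternative settings, with values of 0.46 to 0.62 and adjusted p of 7.49e-05 to 0.0374. At E15.5 it was 0.19 (SE 0.12).

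The other measured subunits of the same complex did not pass. Spc25 had log2 signals of 10.18, 10.16, 10.09 and 9.96 in the E15.5 controls and 10.32, 10.26, 10.40 and 10.31 in the knockouts, then 9.85, 9.52, 9.82 and 9.59 in the E16.5 controls and 9.78, 10.10, 10.12 and 10.10 in the knockouts. Knockout replicate 1 at E16.5 fell among the controls. The difference was 0.33 (SE 0.10, adjusted p = 0.0513) at E16.5, just above the threshold, and Nuf2 differed by 0.42 (SE 0.18, adjusted p = 0.166).

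Cenpf, a large protein of the outer kinetochore that accumulates in G2, had 8.95, 8.89, 9.02 and 8.89 in the E15.5 controls and 9.34, 9.16, 9.19 and 9.25 in the knockouts. At the later stage it had 8.39, 8.78, 8.63 and 8.75 in the controls and 9.19, 8.94, 9.01 and 9.03 in the knockouts. Knockouts were above controls on all arrays at both stages. The difference was 0.40 (adjusted p = 0.0141) at E16.5, passing in 21 of 25 alternative settings, and 0.45 without control replicate 2 (adjusted p = 0.00778; range 5.03e-05 to 0.117). Cenpe, the kinesin that carries chromosomes to the spindle equator, rose by 0.69 (adjusted p = 0.0199), although control replicate 4, at 8.95, lay above knockout replicate 2, at 8.90.

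None of the core checkpoint genes passed at E16.5 in the fit on all arrays, and only Bub1b did without control replicate 2. Bub1b, which encodes BUBR1 of the mitotic checkpoint complex, had 9.74, 9.45, 9.52 and 9.38 in the E15.5 controls and 9.68, 9.63, 9.43 and 9.46 in the knockouts, which overlapped. At E16.5 it had 8.93, 9.34, 9.28 and 9.10 in the controls and 9.58, 9.38, 9.46 and 9.50 in the knockouts, which did not overlap. The differences were 0.02 (SE 0.11) and 0.32 (SE 0.11, adjusted p = 0.0779). Bub1, the kinase that recruits it, differed by 0.46 (SE 0.17, adjusted p = 0.100) at E16.5 and had one of the larger day differences in controls (−0.69, SE 0.17). Over the 25 alternative settings its knockout difference at E16.5 was 0.16 to 0.59 and its day difference in controls −0.82 to −0.07. Mad2l1, which encodes the checkpoint effector MAD2, differed by 0.24 (SE 0.12), and by 0.13 (SE 0.11) without control replicate 2. Cenpa, the centromeric histone, differed by 0.54 (SE 0.24) with control replicate 2 and by 0.23 (SE 0.16) without it.

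Bub3, which brings BUB1 and BUBR1 to the kinetochore, had the highest mean signal of the 40 genes (11.9) and hardly differed. Its log2 signals were 12.03, 12.02, 11.98 and 11.91 in the E15.5 controls and 12.01, 12.01, 11.78 and 11.90 in the knockouts. At E16.5 they were 11.74, 11.63, 11.89 and 11.82 in the controls and 11.79, 11.79, 11.81 and 11.89 in the knockouts. The groups overlapped at both stages, with differences of −0.06 (SE 0.08) and 0.05 (SE 0.08), the latter 0.01 without control replicate 2. Ttk, the kinase MPS1 that starts checkpoint signalling, was the one gene below 0 at E16.5 (−0.13, SE 0.12, adjusted p = 0.553), and its day difference was −0.33 in controls and −0.32 in knockouts.

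None of the 4 genes of the chromosomal passenger complex, which corrects faulty attachments, passed at E16.5, where 6.99% of all genes rose. Of the 4, 2 were higher at an unadjusted p under 0.05 (Birc5 and Cdca8), against 16.8% of all genes, and the median difference was 0.29. Aurkb, the kinase of the complex, had 8.73, 8.61, 8.62 and 8.54 in the E15.5 controls and 8.87, 8.70, 8.86 and 8.87 in the knockouts. At the later stage it had 8.44, 7.72, 8.28 and 8.44 in the controls and 8.31, 8.56, 8.49 and 8.50 in the knockouts. The groups overlapped at both stages, and control replicate 2 at E16.5 was again the lowest array. The difference at E16.5 was 0.24 (SE 0.13) with that array and 0.08 (SE 0.09) without it.

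Cdca8, which encodes the complex's centromere-targeting subunit borealin, had an estimate near 0 at E15.5 and above 0 at E16.5 on its brightest probe set. Its log2 signals were 10.80, 10.64, 10.73 and 10.27 in the E15.5 controls and 10.78, 10.45, 10.52 and 10.57 in the knockouts. At E16.5 they were 10.13, 10.17, 10.30 and 10.04 in the controls and 10.51, 10.50, 10.48 and 10.54 in the knockouts. The groups overlapped at E15.5 and not at E16.5. The differences were −0.03 (SE 0.11) and 0.35 (SE 0.11, adjusted p = 0.0630). Over the 25 alternative settings the E15.5 difference was −0.14 to 0.24 and the E16.5 difference 0.23 to 0.41. Birc5, which encodes survivin, had the largest difference of the 40 genes at E16.5, 0.74, with an SE of 0.25 (adjusted p = 0.0691), and 0.44 without control replicate 2.

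Among the 7 spindle motors and microtubule proteins 2 rose at E16.5, Kif4 and Spag5, against 6.99% of all genes, and the median difference was 0.31. Kif4, a chromosome-bound kinesin that also works at the midzone, had 8.46, 8.54, 8.49 and 8.60 in the E15.5 controls and 8.84, 8.79, 8.62 and 8.70 in the knockouts. At E16.5 it had 8.16, 7.89, 8.23 and 8.25 in the controls and 8.61, 8.44, 8.48 and 8.54 in the knockouts. Knockouts were above controls on all arrays at both stages. It rose by 0.38 (adjusted p = 0.0153) at E16.5 and its difference was 0.30 without control replicate 2 (adjusted p = 0.0298; range 0.000474 to 0.134). The day difference in controls was −0.39 (SE 0.09).

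Tpx2, which activates Aurora A on spindle microtubules, had 9.12, 8.88, 8.98 and 8.90 in the E15.5 controls and 9.09, 9.41, 9.21 and 9.20 in the knockouts. At the later stage it had 8.70, 8.65, 8.64 and 8.60 in the controls and 8.85, 9.08, 8.88 and 8.91 in the knockouts. The groups overlapped at E15.5 through 1 control array and were apart at E16.5. Its differences at the 2 stages were alike, 0.26 (SE 0.09) and 0.28 (SE 0.09, adjusted p = 0.0606). The E16.5 controls lay close together for this gene, replicate 2 included.

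Kif2c, a kinesin that takes apart microtubule ends at centromeres, had 9.64, 9.48, 9.56 and 9.35 in the E15.5 controls and 9.50, 9.51, 9.49 and 9.46 in the knockouts. At E16.5 it had 9.05, 9.23, 9.21 and 9.05 in the controls and 9.47, 9.57, 9.32 and 9.33 in the knockouts. The E15.5 groups overlapped and the E16.5 groups did not, and Kif2c passed at E16.5 only without control replicate 2, not on all arrays. That array was the highest E16.5 control for Kif2c, whose probe set holds probes that match other transcripts. The differences were −0.02 (SE 0.09) and 0.29 (SE 0.09, adjusted p = 0.0507), and the day difference was −0.38 (SE 0.09) in controls, the smallest p of the 40 genes in that comparison, and −0.07 (SE 0.09) in knockouts. Kif11, the motor that pushes spindle poles apart, differed by 0.40 (SE 0.14, adjusted p = 0.0859) at E16.5.

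Of the 6 midzone and cytokinesis genes only Prc1, which bundles the antiparallel microtubules of the midzone, rose at E16.5 (0.29, adjusted p = 0.0425), and it passed in 8 of 25 alternative settings. The median difference of the 6 was 0.34, and 6.99% of all genes rose at that stage. Anln, the scaffold of the contractile ring, differed by 0.41 (SE 0.14, adjusted p = 0.0809), and Ect2, the exchange factor that turns on RhoA at the furrow, by 0.35 (SE 0.15). Kif20a and Racgap1 differed by 0.46 and 0.34, and by 0.16 and 0.13 without control replicate 2. Kif23 differed by 0.30 (SE 0.15), and its day difference in controls was −0.55 (SE 0.15).

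The last 5 genes were listed together under the anaphase promoting complex and chromatin. Of these 5, 3 rose at E16.5, against 6.99% of all genes, with a median difference of 0.42. Top2a, the topoisomerase that untangles sister chromatids, had 11.14, 11.01, 10.95 and 11.08 in the E15.5 controls and 11.40, 11.26, 11.38 and 11.32 in the knockouts. At the later stage it had 10.43, 10.52, 10.65 and 10.93 in the controls and 11.02, 10.97, 11.10 and 11.11 in the knockouts. Knockouts exceeded controls on all arrays at each stage, and the E16.5 knockouts lay within the range of the E15.5 controls. The differences were 0.30 at E15.5 (adjusted p = 0.105) and 0.42 at E16.5 (1.34-fold, adjusted p = 0.0143), the latter passing in 21 of 25 alternative settings. Over those settings the E16.5 difference was 0.16 to 0.52, with limma adjusted p of 3.5e-05 to 0.361. The E15.5 difference was 0.10 to 0.33.

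Mki67, whose protein Ki-67 coats mitotic chromosomes and is the common stain for cycling cells, had 11.46, 11.27, 11.33 and 11.19 in the E15.5 controls and 11.62, 11.65, 11.37 and 11.50 in the knockouts. At E16.5 it had 10.50, 10.82, 10.86 and 11.25 in the controls and 11.37, 11.23, 11.26 and 11.24 in the knockouts. Control replicate 4 at E16.5 lay inside the range of the knockouts, and replicate 1 was the lowest. The difference of 0.42 at E16.5 (1.33-fold, adjusted p = 0.0482) passed in 5 of 25 alternative settings, 2 of them among the 16 that left out 1 array, and was 0.40 without control replicate 2. Cdca3, a trigger of Wee1 destruction, rose by 0.55 (adjusted p = 0.0457) and likewise passed in 5 settings. Cdc20, the activator that the checkpoint holds back, differed by 0.28 (SE 0.11, adjusted p = 0.120), and passed without control replicate 2. Ube2c, the ubiquitin-conjugating enzyme of the complex, differed by 0.63 (SE 0.27, adjusted p = 0.164), or 0.27 (SE 0.17) without control replicate 2.

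**Figure D5:**
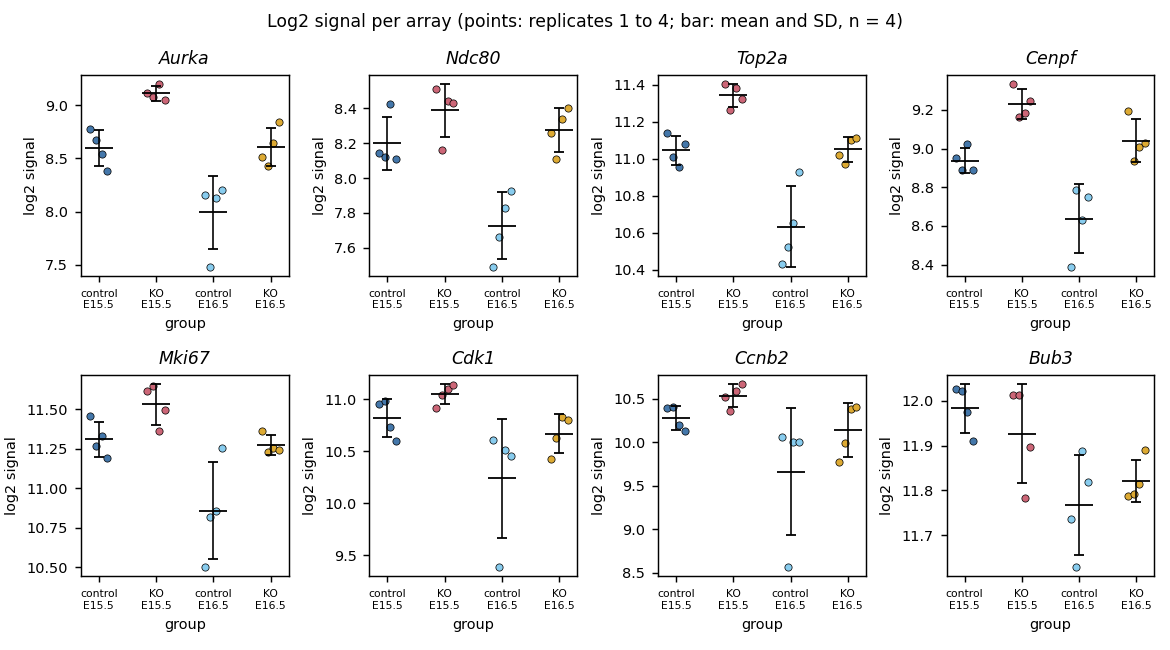
Log2 signal per array (y axis) in the 4 groups (x axis) for 8 mitotic genes; points are replicates 1 to 4 from left to right, and the horizontal mark with its bar is the mean and SD of 4 arrays. Aurka, Top2a and Cenpf are apart between genotypes at both stages and Ndc80 at E16.5, Cdk1 and Ccnb2 have 1 E16.5 control far below the rest, and Bub3 overlaps throughout.

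Control replicate 2 at E16.5 did not lower all mitotic genes alike. It was the lowest of the 4 controls for 22 genes and the highest for 8, with a median deviation from the other 3 of −0.23, against 0.01 over all genes. For 6 genes (15%, against 3.79% of all genes) it lay at least 1 below. Among these genes the deviation differed with the kind of probe set, which was not compared over all genes on that array. Of the 18 genes with a plain probe set it was lowest for 11 (median −0.43), and of 11 with a probe set that matches several transcripts of 1 gene it was lowest for 8 (median −0.25). For the 6 genes with a probe set shared by several genes' transcripts it was lowest for 3 (median −0.07). For all 5 genes whose probe set holds probes that match other transcripts (Cdc25c, Incenp, Kif22, Kif2c and Cdc20) it was the highest of the 4 (median 0.29). The part of RNA quality or of the kind of probe set in these deviations was not tested.

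A second set of probes was available for 27 of the genes, 49 probe sets in all, which the choice of the brightest had left out. In a fit over all 45037 probe sets, 42 of the 49 were higher in the knockout at E16.5, 19 of them at an unadjusted p under 0.05, where 60.5% and 16.3% of all probe sets were. The other 7 were lower, 1 of them at that p (8.72% of all probe sets), a dim probe set of Bub1b (−0.24, mean signal 4.98). At E15.5, 35 were higher and 14 lower, against 60.5% and 39.5% of all probe sets. At an unadjusted p under 0.05, 7 of the 49 were higher and 1 lower, against 15.7% and 7.8%, so neither exceeded the share of all probe sets. In controls 44 were lower at the later stage, 25 at an unadjusted p under 0.05, against 48.6% and 2.2% of all probe sets, and in knockouts 40 were lower, 11 at that p, against 51.7% and 1.91%. A clear disagreement was Kif22, a chromosome-bound kinesin: its brightest probe set (mean signal 11.6), which holds probes that match other transcripts, differed by 0.05 at E16.5, or 0.08 without control replicate 2. One of the others (mean 8.78) differed by 0.51 (SE 0.10, limma unadjusted p = 8.11e-05) and the last (mean 7.58) by 0.42 (SE 0.12, limma unadjusted p = 0.00312). At E15.5 these were −0.07, 0.47 and 0.45. When all probe sets of a gene were averaged, Kif22 was the only mitotic gene to pass at E15.5.

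Other genes of the same processes were counted from lists that are not part of the 41. Of all genes tested 6.99% rose at E16.5, and 8.6% without control replicate 2, the shares beside which the counts are given. At E16.5, 11 of 22 other spindle genes rose, among them the kinesin genes Kif20b (0.57) and Kif18b (0.55), Hmmr (0.55) and Tacc3 (0.52), both of which encode spindle assembly proteins. Condensin and cohesin release genes rose for 6 of 12, with Cdca2 (0.48), the separase gene Espl1 (0.47), Cdca5 (0.43) and the condensin gene Smc4 (0.41) the largest. Of 30 other kinetochore and checkpoint genes 4 rose (13.3%): Spdl1 (0.47), Mis18a (0.46), Sgo1 (0.44) and Trip13 (0.37). Of 8 other cytokinesis genes 3 rose (Arhgef39 0.58, Shcbp1 0.44 and Cep55 0.41). Without control replicate 2 the values were 0.46, 0.46 and 0.33, and Arhgef39 and Cep55 no longer passed. No gene of the 16 of the anaphase promoting complex and its inhibitors passed, with 2 higher at an unadjusted p under 0.05 and a median of 0.11. Without control replicate 2 these were 0 and 0.03. In the 2 fits 16.8% and 18.5% of all genes were higher at that p. None of these lists held a gene that fell, where 3.55% of all genes fell.

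At E15.5 fewer genes of the same lists rose: Kif15 (0.59) and Ckap2l (0.48) of the spindle, Spdl1 (0.43) and Mis18a (0.39) of the kinetochore, and Cep55 (0.45) of abscission, and no gene fell. These were 9.09% of the spindle, 6.67% of the kinetochore and 12.5% of the cytokinesis genes, where 3.69% of all genes rose and 2.18% fell. Without control replicate 2 at E16.5 the counts were 3 of 22 spindle, 2 of 30 kinetochore, 2 of 8 cytokinesis and 1 of 16 anaphase promoting complex genes, against 4.92% of all genes. From E15.5 to E16.5 no gene of these lists passed in either genotype, but at an unadjusted p under 0.05 the controls were lower for 21 of 30 kinetochore genes, 14 of 22 spindle genes, 9 of 12 condensin and cohesin release genes and 1 of 16 genes of the anaphase promoting complex, against 3.01% of all genes. None was higher at that p.

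Of 20 regulators of mitotic transcription 1 rose at E16.5, E2f8, an atypical E2F that represses S phase genes (0.70, and 0.69 at E15.5). That share, 5%, was near the 6.99% of all genes. Foxm1, the forkhead activator of G2 and M genes, differed by −0.09 (SE 0.15), and Mybl2, which encodes the B-MYB subunit of the activating complex, by 0.10 (SE 0.18), and by 0.00 and −0.11 without control replicate 2. Among 18 genes of G2 brakes and cyclin kinase inhibitors 3 rose at E16.5, Btg2 (1.27), Ccng1 (0.69) and Wee1 (0.40), and 3 at E15.5, Cdkn1a (1.53), Btg2 (1.11) and Ccng1 (0.77). Each count was 16.7% of the list, against 6.99% of all genes at E16.5 and 3.69% at E15.5. Btg2 and Cdkn1a restrain the cell cycle, and with Ccng1 are known targets of p53. Cdkn1a had 7.67 to 8.18 in the E15.5 controls and 9.21 to 9.65 in the knockouts, then 7.85 to 10.02 and 9.56 to 10.17 at E16.5, where the difference of 1.00 (SE 0.32, adjusted p = 0.0609) did not pass and control replicate 2 was the highest control. Without that array the difference was 1.41 and passed. Cdkn1c, an imprinted kinase inhibitor abundant in the fetal adrenal, differed by −0.51 (SE 0.16, adjusted p = 0.0868) and −0.36 (SE 0.16, adjusted p = 0.192).

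Of 33 genes of DNA replication and S phase 7 rose at E16.5 and 0 fell, led by Ccne1 (0.58), Mcm5 (0.49), Mcm10 (0.47) and Gins3 (0.45), with a median of 0.32, and 1 rose at E15.5 (Mcm10, 0.32). The 7 were 21.2% of the list, against 6.99% of all genes, and the share at E15.5 was 3.03%, against 3.69%. Without control replicate 2 at E16.5, 7 again passed and the median was 0.21, those higher at an unadjusted p under 0.05 went from 19 to 12, and 2 passed at E15.5. Of all genes 8.6% rose at E16.5 and 4.92% at E15.5 in that fit. Those higher at an unadjusted p under 0.05 at E16.5 went from 16.8% to 18.5% of all genes. Pcna, the sliding clamp of the polymerases, differed by 0.32 (SE 0.29, adjusted p = 0.563), and by −0.08 without control replicate 2. In controls 33 of 33 were lower at the later stage, against 6598 of the 13644 genes tested, and 22 had an unadjusted p under 0.05, against 3.01% of all genes. Cdc6, which loads the replicative helicase, fell (−0.61, adjusted p = 0.0344), but not in the fit without control replicate 2 (−0.55).

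Markers of several cell types moved with the genotype, and their part in the differences of the mitotic genes was not tested. Of all genes tested 3.69% rose and 2.18% fell at E15.5, and 6.99% and 3.55% at E16.5. Over the day 0.044% rose and 0.0513% fell in controls, and 0.872% and 0.0293% in knockouts. At an unadjusted p under 0.05, 16.8% of all genes were higher at E16.5, and 4.84% over the day in controls. Macrophage genes rose for 7 of 12 at E15.5 and 12 of 12 at E16.5. Their mean level was 7.61 to 7.90 in controls and 8.25 to 8.77 in knockouts at E15.5, and 7.94 to 8.46 against 9.15 to 9.56 at E16.5. From E15.5 to E16.5 macrophage genes rose for 6 of 12 in the knockouts and 0 of 12 in the controls, where 6 were higher at an unadjusted p under 0.05, and the mitotic genes were lower at the later stage in each genotype. Cortex genes fell for 4 of 12 at E15.5 and 7 of 12 at E16.5, with mean levels of 12.0 to 12.5 against 11.6 to 12.0 and of 12.0 to 12.5 against 11.3 to 11.7. Chromaffin genes rose for 3 of 9 at E16.5 and 0 of 9 at E15.5 (mean levels 10.5 to 11.1 and 11.1 to 11.5 at E16.5). Erythroid genes rose for 1 of 6 at each stage, with mean levels of 7.74 to 8.86 in controls and 8.43 to 8.80 in knockouts at E16.5, and of 8.57 to 9.26 and 8.77 to 9.36 at E15.5. Over the day 1 of 6 fell in each genotype, the embryonic globin gene Hbb-y (−3.71 in controls and −2.80 in knockouts), a call that was lost in the controls without replicate 2 (−3.59). At E16.5 the log2 signal of Hbb-y was 11.9 in replicate 1 of each genotype. It was 8.33 to 9.10 in the other controls and 9.79 to 10.2 in the other knockouts. No gene of 8 endothelial or 9 capsule markers passed at either stage, with 3 endothelial and 0 capsule genes higher at an unadjusted p under 0.05 at E16.5, and 1 of 5 Schwann lineage markers rose at E16.5, or 2 without control replicate 2. Kidney and liver markers, 5 tested, did not pass at either stage, with 0 at an unadjusted p under 0.05, and their mean level ranged from 6.39 to 10.5 over the 16 pools.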

How the data were processed

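The authors deposited log2 expression values for each probe set of 16 arrays. RMA and limma are listed in the submitters' processing notes, with versions not given in the sources used here. Replicates are pools from separate litters, and which number belongs to which litter is not given. Of 45101 probe sets 34945 carried 1 gene symbol, 932 several, 9160 none and 64 were controls. Genes took their brightest probe set and were tested when it exceeded, on 4 or more arrays, the value at the 40th percentile there. In R 4.3.3, limma 3.58.1 (lmFit, eBayes, two-sided) fitted 1 mean per group over all 16 arrays, with p-values adjusted over 13644 genes. The fit was tested on simulated data. Log2 values carry no read depth; the number of arrays limits precision, and the median SE of a difference over all genes was 0.14. Genotypes were compared at each stage, stages within each genotype, and the 2 effects with each other; arrays of a group enter several comparisons, which are not independent. The named members were all listed genes, with values on every array for the 4 with the smallest p in each comparison and for Mki67, Top2a, Cdk1, Plk1, Aurkb, Aurka and Bub3, and up to 4 genes with the largest change per other list, plus Foxm1, Mybl2, Cdkn1a, Cdkn1c, Btg2 and Pcna. The genes and lists were chosen with earlier results of these data known. Same-numbered arrays of the 2 genotypes correlated at −0.39 to 0.45 in their deviations from group means. These correlations differed in sign and the litter of each number is not given, so the main fit used no pairing. Litters shared by the 2 genotypes are therefore not accounted for in it.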

Additional observations from a re-analysis of the deposited data

Results flagged for a closer look

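In 10 of 164 groups of 4 arrays examined over the mitotic genes 1 array lay far from the other 3, and about 1 in 20 groups does so by chance. Control replicate 2 at E16.5 was the low array for Cdk1 (9.39, others 10.45 to 10.61), Ccnb2 (8.57, others 10.001 to 10.057), Aurka (7.48, others 8.13 to 8.21) and Nusap1 (8.81, others 9.46 to 9.58). Knockout replicate 1 at E16.5 was the low array for 2 kinetochore genes, Nuf2 (8.79, others 9.39 to 9.51) and Spc25 (9.78, others 10.10 to 10.12). On that array the 3′ probe sets of Gapdh and Actb exceeded the 5′ ones by 1.50 and 1.74, against 0.11 to 0.73 and 0.76 to 1.18 on the other E16.5 knockouts, and the part of RNA quality in these values was not tested. Among E15.5 controls, replicate 3 was high for Ndc80 (8.42, others 8.11 to 8.15), replicate 2 was high for Nuf2 (9.40, others 9.03 to 9.08) and replicate 4 was low for Cdca3 (9.65, others 10.19 to 10.29). Knockout replicate 2 at E15.5 was low for Aurkb (8.70, others 8.86 to 8.87).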

How the results depend on the processing

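No count or median over the mitotic genes and no gene that passed changed direction under the 25 alternatives. Single genes that did not pass did: in at least 1 alternative the sign was opposite at E15.5 for 7 of 40 genes (Bub1, Bub1b, Cdc25b, Cdc25c, Cdca8, Kif22 and Kif2c), at E16.5 for 3 (Bub3, Cdc25b and Kif22), over the day for 1 in controls (Cdc25b) and 4 in knockouts, and for the difference between effects for 13. Kif22 ranged from −0.16 to 0.29 at E15.5. At E15.5 the count of genes that rose was 1 with no filter on dim probe sets (6.19% of all genes), 1 with the mean of all probe sets (4.51%), 3 with array weights (6.25%) and 0 to 2 with 1 array left out, and the median difference was 0.12 after quantile normalization, 0.11 with arrays centred on the upper quartile and 0.10 with arrays centred on dim probe sets (0.17 to 0.22 with 1 array left out). At E16.5 the count was 5, 3 and 4 under those 3 scalings, 1 (Ndc80) when the genotype offset was allowed for (2.78% of all genes), 27 with array weights (23.8% of all genes) and 6 to 12 with 1 array left out, with medians of 0.30 to 0.43. Over the day, array weights gave 32 lower genes in controls and 4 in knockouts (2.74% and 0.322% of all genes), and leaving out 1 array gave 0 to 1 and 0 to 3, with medians of −0.49 to −0.35 and −0.26 to −0.22; averaging all probe sets gave a median of −0.19 in knockouts. With 1 array left out, 2.55% to 4.92% of all genes rose at E15.5 and 4.46% to 8.6% at E16.5. Over the day at most 0.066% of all genes fell in controls and 0.0733% in knockouts in those fits. The median difference between effects was 0.09 to 0.23 with 1 array left out. With the replicate number as a block the count was 1 at E15.5 (Aurka; 3.2% of all genes), 8 at E16.5 (6.06%) and 0 over the day in each genotype; own numbers correlated best for 3 of 8 pairs. Differences within about 0.17 to 0.58 of 0, the half-widths of the 95% intervals, were not detectable for single genes. These intervals are not adjusted for the number of genes, so passing took larger differences.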
